A study of Homo sapiens with 16 samples.

Results

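The amino acid transporter genes SLC7A5, SLC3A2, SLC7A11, SLC1A5, SLC38A1, SLC38A2, SLC7A1 and SLC6A14 and the glucose transporter genes SLC2A1 and SLC2A3 were followed across 16 RNA-seq libraries of human epidermal cells in which YAP1 was lowered or an active form of it was added. The 10 genes were picked by symbol from the 26229 genes in the count table, with earlier results of these data known. All 10 had a mean above 10 counts per library and were among the 14673 genes tested. For 9 of them the average level, logCPM, was above 1, the log2 level that a gene had to exceed to be called, and SLC6A14 lay below it.

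Libraries came from A431 cells, a line from an epidermoid carcinoma, and from HaCAT cells, an immortalised skin keratinocyte line. In each line, 1 library had a control siRNA (siCTRL), 3 had YAP1 siRNA (siYAP), 1 had an empty expression vector and 3 had YAP1 S5A, a constitutively active YAP1 mutant (YAP5SA). All cells grew in DMEM with serum. The siRNA was given in a pair of transfections, and RNA was taken 48 hours after the second. No time is given for the vector libraries. Each line stands for its tissue as 1 established line, each control group is 1 library, and the promoter of the vector is not given in the sources used here. The study's methods call the triplicates biological, the labels give triplicates for all but the controls, and nothing further says what separated them.

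Amino acid transporters set which building blocks a dividing cell can draw from its medium. SLC3A2 (4F2hc, CD98) is a heavy chain that carries several light chains to the surface, among them SLC7A5 (LAT1), which exchanges glutamine for leucine and other large neutral amino acids, and SLC7A11 (xCT), which exchanges glutamate for cystine and so feeds glutathione synthesis. SLC1A5 (ASCT2), SLC38A1 (SNAT1) and SLC38A2 (SNAT2) carry glutamine and other small neutral amino acids, SLC7A1 (CAT1) carries arginine and lysine, and SLC6A14 is a broad transporter of neutral and cationic amino acids. SLC2A1 (GLUT1) and SLC2A3 (GLUT3) let glucose into the cell. YAP1 acts in the nucleus as a co-activator, mostly through TEAD factors bound to DNA.

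Promoter sequence was given by RefSeq (GRCh38.p14) for 8 of the 10 genes in 13 windows, and not for SLC7A11 and SLC2A3. Windows of SLC7A5, SLC3A2 and SLC1A5 are shown because SLC7A5 and SLC1A5 were called with YAP5SA in HaCAT and SLC3A2 encodes the heavy chain shared by both light chains. Each is the 250 bases before a transcript start, 5′ to 3′ on the strand of the gene, and capitals mark every match to a searched motif on either strand. The windows are chr16:87869508-87869757 on the minus strand for SLC7A5, chr11:62881449-62881698 on the plus strand for SLC3A2 and chr19:46784815-46785064 on the minus strand for SLC1A5. The SLC3A2 and the SLC1A5 window are each 1 of 3 listed for the gene, chosen for a match to the antioxidant response letters in SLC3A2 and to the TEAD letters in SLC1A5.
SLC7A5: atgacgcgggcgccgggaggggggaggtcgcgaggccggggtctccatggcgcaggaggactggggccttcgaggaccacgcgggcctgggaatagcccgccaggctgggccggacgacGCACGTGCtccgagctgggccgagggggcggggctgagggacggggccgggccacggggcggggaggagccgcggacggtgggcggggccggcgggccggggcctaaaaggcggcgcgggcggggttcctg
SLC3A2: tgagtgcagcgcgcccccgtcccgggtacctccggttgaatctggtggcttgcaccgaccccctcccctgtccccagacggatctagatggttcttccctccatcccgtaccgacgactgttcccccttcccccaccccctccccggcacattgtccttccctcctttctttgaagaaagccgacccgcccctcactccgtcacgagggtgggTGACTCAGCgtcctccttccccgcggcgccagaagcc
SLC1A5: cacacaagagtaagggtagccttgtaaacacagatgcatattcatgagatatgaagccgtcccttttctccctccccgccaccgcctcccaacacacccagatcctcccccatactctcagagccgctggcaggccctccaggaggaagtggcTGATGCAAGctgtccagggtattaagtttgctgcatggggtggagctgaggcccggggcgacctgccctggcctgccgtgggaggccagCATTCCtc
The TEAD letters GGAATG, with reverse complement CATTCC, occurred in 1 of the 13 windows, 8 bases before the SLC1A5 start shown, and in 11.9% of 35116 windows of the same length. An E-box, CACGTG, lay in the SLC7A5 window and in another SLC1A5 window, against 6.34% of all windows. The antioxidant response letters TGACNNNGC were in 3 of the 13 windows, including that of SLC3A2, against 10.9% of all. TGATGNAAN, the core of elements bound by C/EBP and ATF factors, was in 1 window, that of SLC1A5 shown, against 3.13% of all. NACGTGN, the core of a hypoxia response element, overlaps the E-box and was in 3 windows, against 18.4% of all. These matches are letters in a window and say nothing of what was bound there.

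The libraries held 18115624 to 46791673 estimated counts, and their squamous keratinocyte markers were all detected, with a summed level of 2376 to 8535 CPM (counts per 1000000 counts of the library, scaled by TMM). No gene of the 9 keratinocyte markers was at 0 in any group, while the 7 fibroblast markers summed to 0.669 to 27.9 CPM, the 4 endothelial markers to 1.18 to 59.2 CPM, the 4 melanocyte markers to 0.893 to 3.78 CPM and the 6 leukocyte markers to 12.2 to 172 CPM. YAP1 was at 94.3 CPM in A431 with siCTRL and at 5.04 to 7 CPM with siYAP, and in HaCAT it was at 254 CPM and 21.6 to 23.2 CPM. With YAP5SA it stood at 1495, 3246 and 2940 CPM in A431 against 124 CPM with the empty vector, and at 7550, 22255 and 10069 CPM in HaCAT against 423 CPM. A431 YAP5SA replicate 1 thus had the lowest YAP1 level of its group. It also stood apart over all genes, with a chi-square per degree of freedom of 78.0 and 71.8 against replicates 2 and 3, which differed from each other by 6.75. The HaCAT YAP5SA libraries differed by 143 and 107 between replicate 2 and the others and by 70.6 between replicates 1 and 3. Results that rest on these libraries are given with and without them.

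SLC7A5 had the lowest FDR of the members for YAP5SA against empty vector in HaCAT. In A431 it was at 368 CPM with siCTRL, 174, 208 and 223 CPM with siYAP, 250 CPM with empty vector and 206, 675 and 535 CPM with YAP5SA. In HaCAT it was at 186 CPM with siCTRL, 172, 160 and 197 CPM with siYAP, 214 CPM with empty vector and 654, 643 and 822 CPM with YAP5SA. All 3 HaCAT YAP5SA libraries lay far above every other HaCAT library, whereas in A431 replicate 1 sat below the empty vector and the other two above it. In HaCAT SLC7A5 rose 3.30-fold over empty vector (log2 fold change 1.72, SE 0.47, FDR 0.0306 by edgeR's quasi-likelihood test). In A431 the same contrast gave 0.92 (SE 0.45, FDR 0.803). Against siCTRL, siYAP gave -0.87 in A431 (SE 0.40, FDR 0.227) and -0.08 in HaCAT (SE 0.42, FDR 0.951).

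SLC3A2, the heavy chain, was not called for siYAP or YAP5SA against a control. Its A431 levels were 177 CPM with siCTRL, 154, 161 and 172 CPM with siYAP, 161 CPM with empty vector and 129, 431.2 and 359 CPM with YAP5SA. HaCAT levels were 115 CPM in the siCTRL library, 114, 105 and 97.9 CPM after siYAP, and then 473 CPM with empty vector and 470, 621 and 567 CPM with YAP5SA. The empty vector library of HaCAT was already 4.12-fold above the siCTRL library, and it lay within the range of the YAP5SA libraries. The YAP5SA effect was 0.22 in HaCAT (SE 0.43, FDR 0.751) and 0.93 in A431 (SE 0.45, FDR 0.803).

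SLC7A11, the cystine-glutamate exchanger, had the widest range of the members above 10 CPM, 14.0-fold from the lowest to the highest library. In A431 it was at 89.3 CPM with siCTRL, 52.6, 49.7 and 51.6 CPM with siYAP, 30.6 CPM with empty vector and 24.5, 243 and 196 CPM with YAP5SA. In HaCAT the levels were 24.7 CPM with siCTRL, 22.2, 35.1 and 24.4 CPM with siYAP, 138 CPM with empty vector and 145, 311 and 168 CPM with YAP5SA. A431 YAP5SA replicates 2 and 3 were 7.95-fold and 6.40-fold above the empty vector, and replicate 1 was 0.801 of it. The fitted YAP5SA effect in A431, 2.34, had an SE of 0.91 and an FDR of 0.803. In HaCAT it was 0.59 (SE 0.79, FDR 0.643).

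Across the 16 libraries SLC3A2 and SLC7A11 moved closest together of the 45 pairs of members, with Pearson's r = 0.951 for log2 levels centred within each line. Libraries of 1 group share their treatment, so this r describes how the groups and libraries are arranged and has no p.

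**Figure D1:**
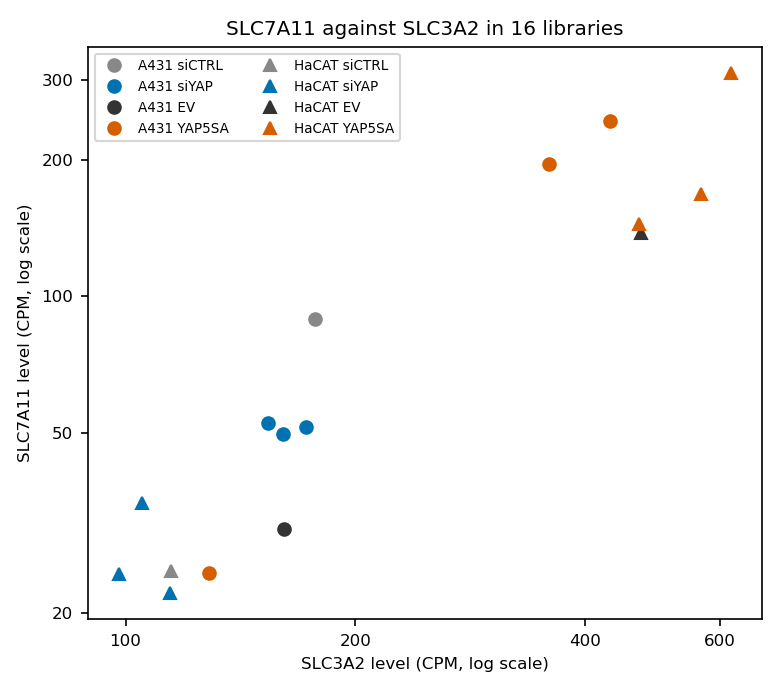
SLC7A11 level against SLC3A2 level, both in CPM on log axes, with 1 point for each of the 16 libraries (circles A431, triangles HaCAT; grey siCTRL, blue siYAP, black empty vector, orange YAP5SA). The HaCAT empty vector library, at 473 and 138 CPM, sits among the YAP5SA libraries, and A431 YAP5SA replicate 1, at 129 and 24.5 CPM, sits among the low ones.

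The balance of light to heavy chain counts is free of library scaling. The log2 ratio of SLC7A5 to SLC3A2 counts was 1.05 in A431 with siCTRL and 0.18, 0.37 and 0.37 with siYAP, so all 3 siYAP libraries lay below the control. In HaCAT it was 0.70 with siCTRL and 0.59, 0.61 and 1.01 with siYAP, on both sides of the control. With empty vector it was 0.64 in A431, and with YAP5SA 0.68, 0.65 and 0.58, replicate 1 included. In the vector arm of HaCAT it was -1.14 with empty vector, the only library of the 16 with fewer SLC7A5 than SLC3A2 counts, and 0.48, 0.05 and 0.54 with YAP5SA. The ratio of SLC7A11 to SLC3A2 in A431 was -2.39 with empty vector, -2.39 in YAP5SA replicate 1 and -0.83 and -0.87 in replicates 2 and 3. Replicate 1 thus matched the empty vector in this ratio and lay apart from its group. These ratios are descriptions of libraries and were not tested.

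**Figure D2:**
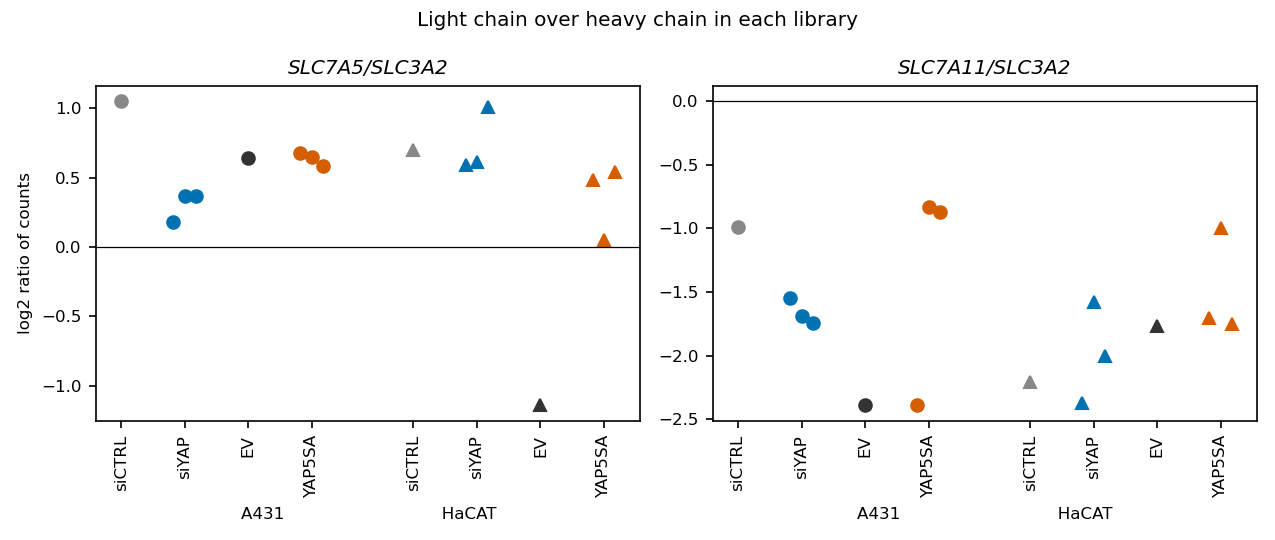
Log2 ratio of light chain to heavy chain counts in each of the 16 libraries, for SLC7A5 over SLC3A2 (left) and SLC7A11 over SLC3A2 (right), 1 point per library by line and treatment. The HaCAT empty vector library is lowest on the left at -1.14, and the A431 empty vector library and YAP5SA replicate 1 share -2.39 on the right.

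SLC1A5, the glutamine transporter, was at 199 CPM in A431 with siCTRL, 151, 172 and 182 CPM with siYAP, 102 CPM with empty vector and 116, 210 and 177 CPM with YAP5SA. HaCAT cells had 84.2 CPM with siCTRL, 58.9, 80.4 and 62.6 CPM with siYAP, 58.5 CPM with empty vector and 96.4, 149 and 137 CPM with YAP5SA. Every YAP5SA library lay above the empty vector library of its line. SLC1A5 rose 2.18-fold over empty vector in HaCAT (log2 fold change 1.12, SE 0.31, FDR 0.0326). In A431 the value was 0.71 (SE 0.31, FDR 0.803), and over both lines 0.92 (SE 0.22, FDR 0.0499), just inside the threshold. The siYAP values were -0.24 (FDR 0.681) in A431 and -0.32 (FDR 0.598) in HaCAT.

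SLC38A1 and SLC38A2, neighbouring genes on chromosome 12 whose products carry small neutral amino acids with sodium, differed between the lines in how siYAP libraries lay about the control. In A431 SLC38A1 was at 679 CPM in the siCTRL library against 462, 455 and 478 CPM after siYAP, and in HaCAT at 465 CPM against 597, 666 and 610 CPM. The siYAP libraries were thus all below the control in A431 and all above it in HaCAT, with log2 fold changes of -0.55 (SE 0.24, FDR 0.203) and 0.43 (SE 0.25, FDR 0.382). SLC38A1 in the vector arm was at 325 CPM in A431 and 496 CPM in HaCAT with empty vector, and at 345, 633 and 563 CPM and 411, 525 and 473 CPM with YAP5SA. SLC38A2 was at 1242 CPM in A431 with siCTRL, 1093, 977 and 1093 CPM with siYAP, 596 CPM with empty vector and 700, 826 and 767 CPM with YAP5SA. Its HaCAT levels were 729 CPM with siCTRL, 731, 991 and 813 CPM with siYAP, 1192 CPM with empty vector and 1181, 1235 and 1115 CPM with YAP5SA. The siYAP effect of SLC38A2 was -0.24 in A431 (SE 0.17, FDR 0.437) and 0.21 in HaCAT (SE 0.17, FDR 0.544), where replicate 1 was level with the control. The difference of the siYAP effect between the lines did not pass the edgeR test for SLC38A1 (FDR 0.309) or SLC38A2 (FDR 0.503). The A431 empty vector library had the lowest level of both genes among the 16 libraries, and the A431 siCTRL library the highest.

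SLC7A1, which imports arginine and lysine, was at 119 CPM in A431 with siCTRL, 78.8, 71.1 and 90.2 CPM with siYAP, 56.3 CPM with empty vector and 60.1, 110 and 93.8 CPM with YAP5SA. HaCAT cells had 89.1 CPM with siCTRL, 62.4, 53.4 and 80.4 CPM with siYAP, 107 CPM with empty vector and 157, 156 and 167 CPM with YAP5SA. In both lines every siYAP library lay below its control and every YAP5SA library above its control. By edgeR these effects against a control did not pass the test over all genes, with -0.51 for siYAP (SE 0.19, FDR 0.0921) and 0.61 for YAP5SA (SE 0.20, FDR 0.113) over both lines. The YAP5SA value was called by DESeq2 (0.61, FDR 0.0365) and without A431 YAP5SA replicate 1 (0.71, FDR 0.0196).

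SLC6A14 was close to absent. In A431 every library had at most 3 counts of it. In HaCAT it was listed at 0 counts with siCTRL, which allows up to 0.164 CPM at this depth (3 counts, counting error only). It had 8.08, 4 and 1 counts with siYAP, 23 counts with empty vector and 37, 48 and 43.5 counts with YAP5SA, the last at 0.948, 1.38 and 1.1 CPM. The vector arm was thus above the siRNA arm in HaCAT, at levels too low for a call. SLC6A14 passed the count filter, with a mean of 10.75 counts, only through these HaCAT vector libraries.

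SLC2A1, the basal glucose transporter of many cell types, was the steadiest member, with a highest library 1.99-fold above the lowest. In A431 it was at 133 CPM with siCTRL, 119, 120 and 131 CPM with siYAP, 154 CPM with empty vector and 162, 203 and 185 CPM with YAP5SA. HaCAT cells had 114 CPM with siCTRL, 109, 116 and 112 CPM with siYAP, 152 CPM with empty vector and 155, 193 and 217 CPM with YAP5SA. YAP5SA libraries lay above empty vector in both lines, by 0.25 (SE 0.17, FDR 0.831) in A431 and 0.31 (SE 0.17, FDR 0.235) in HaCAT.

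SLC2A3, a high-affinity glucose transporter, was near the limit of detection in A431 and present in HaCAT. A431 libraries held 2.22 to 14.3 counts of it, and HaCAT libraries 10.9 counts with siCTRL, 29.1, 27.5 and 30.5 counts with siYAP, 118 counts with empty vector and 363, 149 and 473 counts with YAP5SA. On the CPM scale the HaCAT vector arm was at 3.76 CPM with empty vector and 9.30, 4.28 and 12.1 CPM with YAP5SA (log2 fold change 1.19, SE 0.51, FDR 0.131). SLC2A3 had a logCPM of 1.30, above the level of 1 for a call only through these vector libraries. No other library was above 1.36 CPM. Calls of SLC2A3 in which these libraries are the higher side therefore add no support. Its neighbour SLC2A14 is nearly identical in sequence, so reads can be split between them. SLC2A14 had 0 to 9.5 estimated counts in any library.

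**Figure D3:**
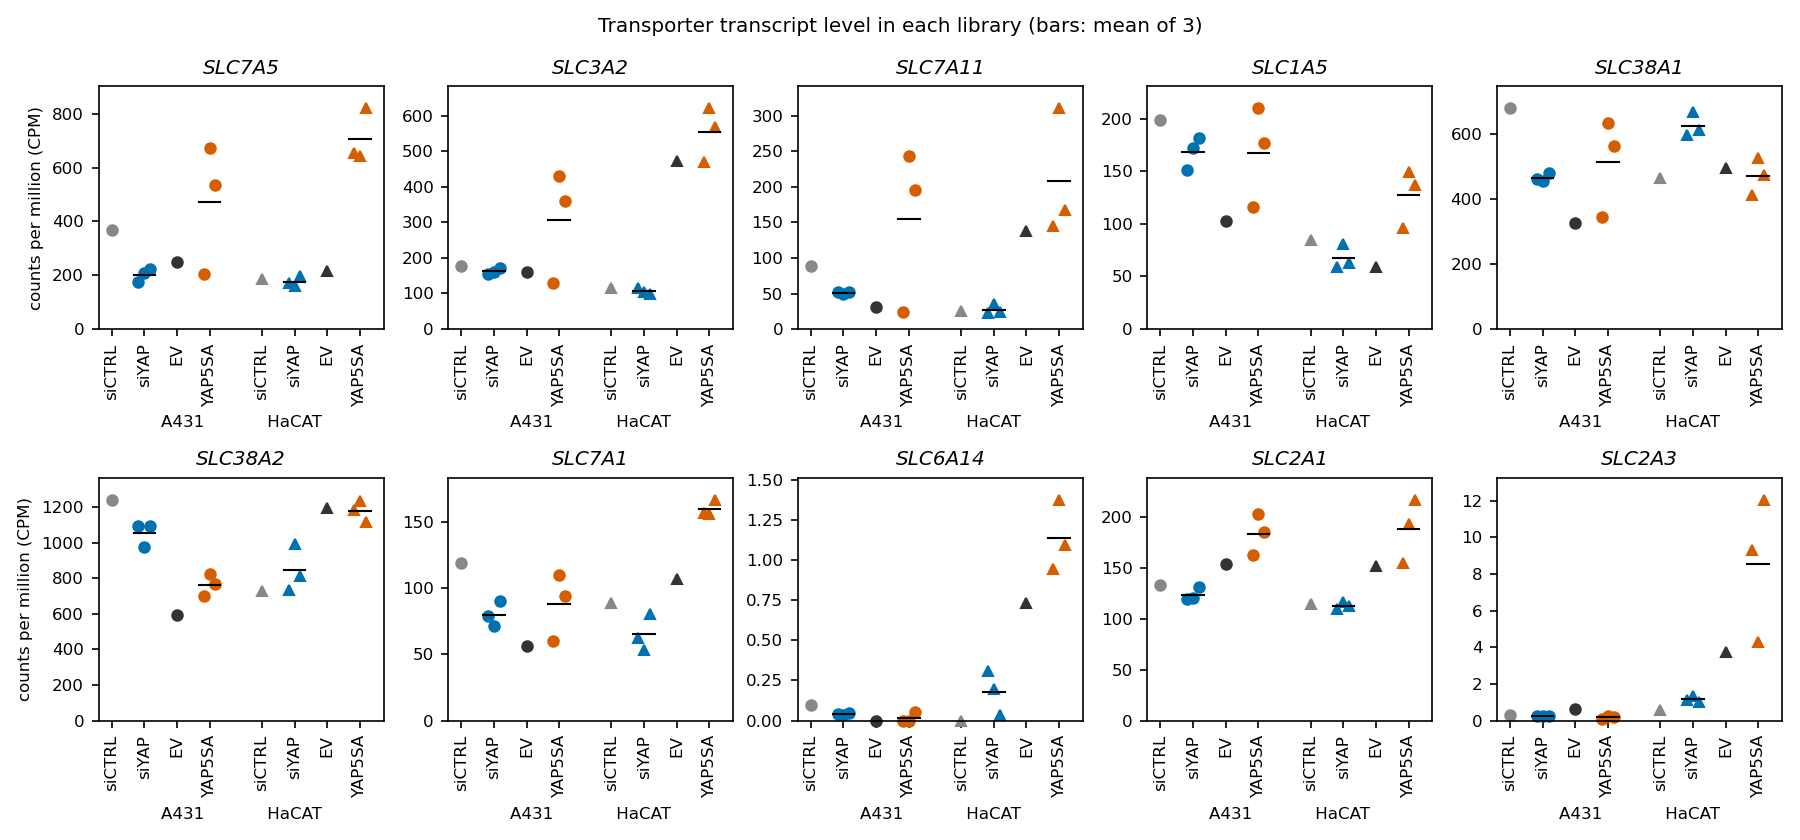
Level of each of the 10 genes in CPM (linear axes from 0, own scale per gene) in each of the 16 libraries, by line and treatment, with circles for A431 and triangles for HaCAT. Horizontal bars are means of the 3 libraries of siYAP and of YAP5SA, and the 3 HaCAT YAP5SA libraries of SLC7A5, at 643 to 822 CPM, stand clear of all other HaCAT libraries.

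Knockdown of YAP1 asks which transporter levels differ when YAP1 is low. No member was called with siYAP against siCTRL in A431, where 5.6% of the tested genes were, in HaCAT, where 5.67% were, or over both lines, where 13% were (5.3% higher, 7.68% lower). At an unadjusted p under 0.05 edgeR counted 1 member in A431, 0 in HaCAT and 1 over both lines. Of the 14673 tested genes it counted 3264, 2997 and 4186. DESeq2 also called 0 members in each. In A431 the 3 siYAP libraries lay below the siCTRL library for all 10 members, against 34.9% of all tested genes, with a median log2 fold change of -0.39 for the members and 0.029 for all genes. SLC6A14 and SLC2A3 rest there on few counts. In HaCAT 4 members had every siYAP library above the control (36.3% of all genes) and 3 every library below (33.4%), with a median of 0.06. SLC6A14 is 1 of the 4, on 0 counts in the control and 8.08, 4 and 1 counts with siYAP. Values of single members had SEs from 0.17 upwards, and all are set against 1 control library.

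**Figure D4:**
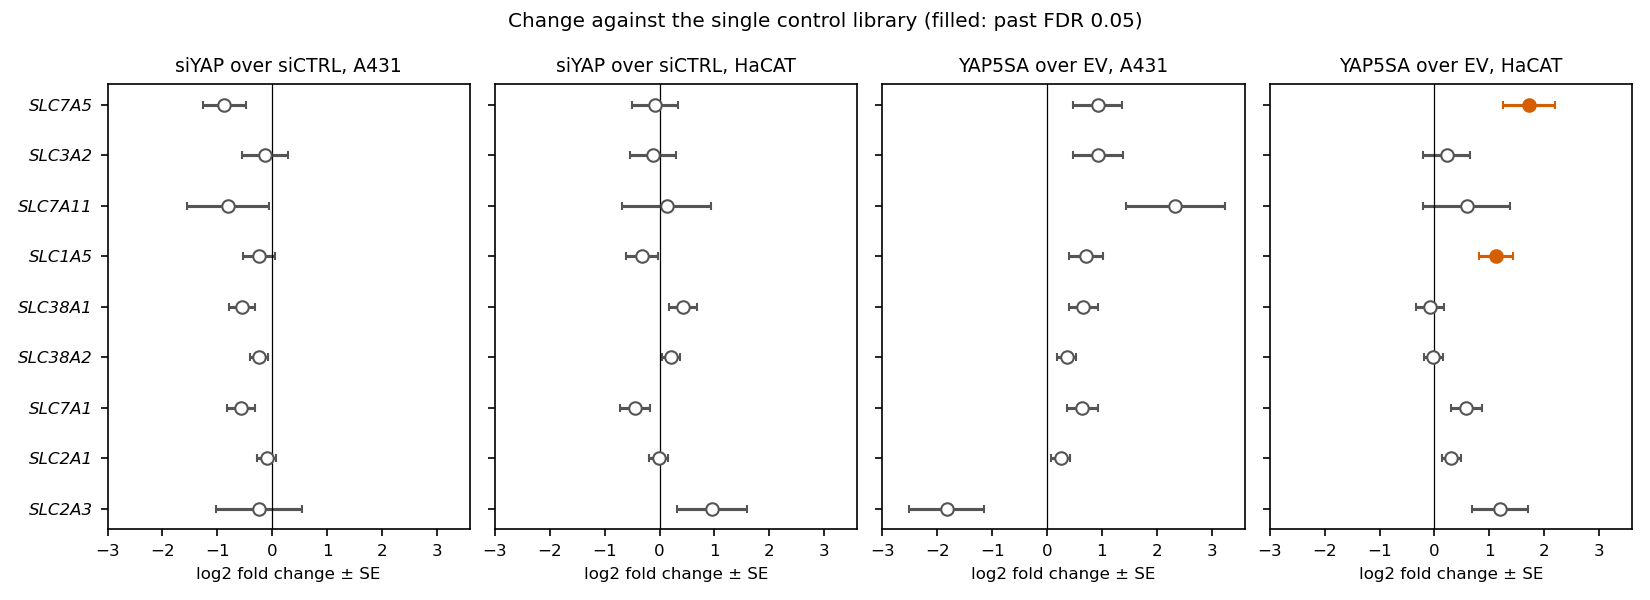
Log2 fold change with its SE (edgeR, 1 control and 3 treated libraries) for 9 members in 4 contrasts, siYAP over siCTRL and YAP5SA over empty vector (EV) in each line. SLC6A14 is left out for its low counts, and only SLC7A5 and SLC1A5 in HaCAT with YAP5SA, at 1.72 and 1.12, are filled as called.

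Expression of YAP5SA asks which transporter levels differ when active YAP1 is added. In HaCAT 2 of 10 members rose, SLC7A5 and SLC1A5, where 6.99% of all tested genes rose and 13.6% changed. All 3 libraries lay above empty vector for 7 members (32.1% of all genes) and below it for 0 (33.9%), and the median was 0.58 for the members and 0.013 for all genes. SLC6A14 is 1 of the 7. It passed the count filter only through the HaCAT vector arm itself, so it adds no support. Over both lines edgeR called only SLC1A5, against 2.04% of all genes (1.38% higher, 0.661% lower), and SLC7A5 missed at an FDR of 0.0547 (log2 fold change 1.32, SE 0.32). DESeq2 called SLC7A5 (FDR 3.52e-04) and SLC7A1 as well as SLC1A5, beside 7.24% of all genes. With siCTRL and empty vector as 2 controls SLC1A5 was lost, at 0.50 (FDR 0.156), and SLC7A5 was called, at 1.21 (FDR 0.0272). In A431 0 members were called, as were 0% of all tested genes, and DESeq2 called 0 members. At an unadjusted p under 0.05 edgeR counted 5 members there, and 828 of the 14673 tested genes. In all, 5 of the 10 had every A431 YAP5SA library above empty vector (28.9% of all genes) and 1, SLC2A3 on few counts, had every library below (24.5%).

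These calls turned on single libraries. Without A431 YAP5SA replicate 1, 4 members were called in A431, where 0.592% of all genes were: SLC7A5 at 1.27 (FDR 0.0274), SLC3A2 at 1.29 (FDR 0.0123), SLC7A11 at 2.84 (FDR 0.0160) and SLC38A1 at 0.88 (FDR 0.0296). The same fit called 6 members over both lines, where 8.3% of all genes were called. Without HaCAT YAP5SA replicate 3 both HaCAT calls were lost, with SLC7A5 at 1.60 (FDR 0.0643) and SLC1A5 at 1.07 (FDR 0.0689). Without HaCAT YAP5SA replicate 2, SLC2A3 was called too, at 1.51 (FDR 0.0204). Over both lines the call of SLC1A5 was lost without A431 YAP5SA replicate 2 or 3 or HaCAT YAP5SA replicate 2 or 3. In A431 YAP5SA replicate 1 all members but SLC6A14 and SLC2A3 lay at 0.799 to 1.17 times the empty vector library, and its YAP1 level was 12-fold above it, against 26.1-fold and 23.6-fold in replicates 2 and 3. The part of its lower YAP1 level in these values was not tested.

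**Figure D5:**
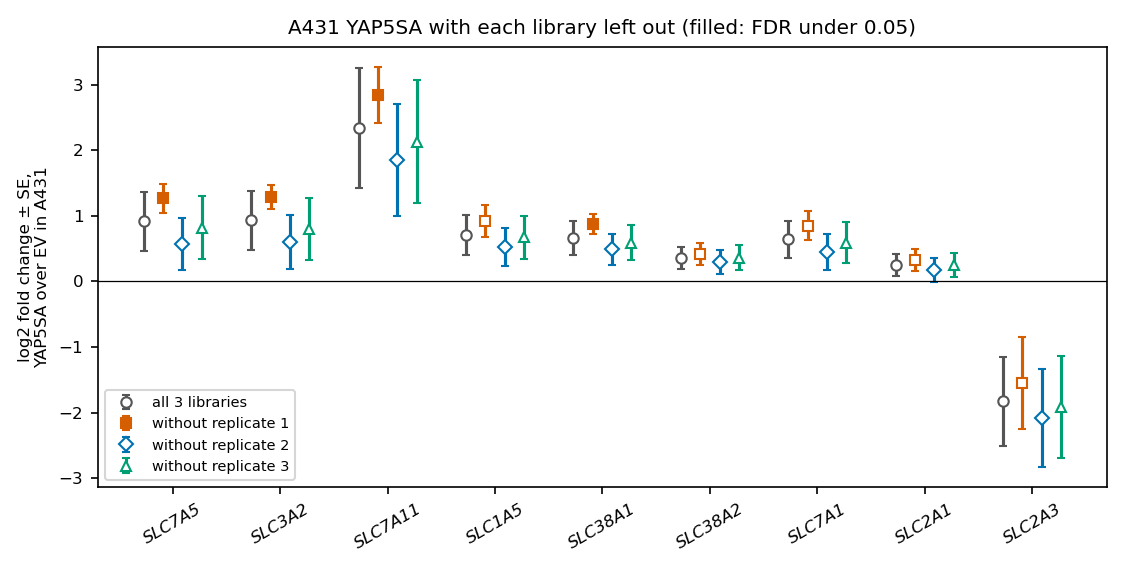
Log2 fold change with SE of 9 members for YAP5SA over empty vector in A431, from all 3 YAP5SA libraries and with each left out in turn (filled symbols, FDR under 0.05). Leaving out replicate 1 narrows the errors and fills SLC7A5 at 1.27, SLC3A2 at 1.29, SLC7A11 at 2.84 and SLC38A1 at 0.88.

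The arms were also set against each other directly, 3 libraries against 3. In HaCAT 8 members were higher with YAP5SA than with siYAP, where 60% of all genes were called, 31.5% higher and 28.5% lower. The log2 differences were 2.94 for SLC7A11 (SE 0.59), 2.87 for SLC2A3 (SE 0.37), 2.39 for SLC3A2 (SE 0.31), 2.0 for SLC7A5 (SE 0.31), 1.29 for SLC7A1 (SE 0.20), 0.92 for SLC1A5 (SE 0.21), 0.74 for SLC2A1 (SE 0.12) and 0.48 for SLC38A2 (SE 0.12), with FDRs from 1.62e-05 to 0.00303. SLC38A1 was at -0.41 (SE 0.17, FDR 0.0504), and it was called lower by DESeq2 (FDR 0.0385), with the line alone (FDR 0.0255), with more than 10 counts in every library (FDR 0.0255) and without HaCAT YAP5SA replicate 2 (FDR 0.0379). In A431 4 members were higher, SLC7A11 by 1.59 (SE 0.56, FDR 0.0397), SLC7A5 by 1.23 (SE 0.30, FDR 0.00684), SLC3A2 by 0.92 (SE 0.30, FDR 0.0300) and SLC2A1 by 0.57 (SE 0.12, FDR 0.00283), and SLC38A2 was lower at -0.46 (SE 0.12, FDR 0.00852), where 34.6% of all genes were called, 20% higher and 14.6% lower. Over both lines 7 members were higher, where 58.4% of all genes were called and 31.2% were higher. SLC2A3 is 1 of the 8 in HaCAT and 1 of the 7 over both lines. It passed the logCPM level only through the HaCAT vector libraries, so it adds no support. The A431 calls of SLC3A2 and SLC7A11 were lost when any 1 of the 5 libraries other than YAP5SA replicate 1 was left out.

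This comparison also holds every other difference between the siRNA and vector arms, which the 2 control libraries of each line show without replicates. The kind of transfection differs between the arms, and the time of harvest may, as none is given for the vector arm. In HaCAT SLC7A11 was 5.59-fold, SLC2A3 6.25-fold, SLC3A2 4.12-fold and SLC38A2 1.64-fold higher with empty vector than with siCTRL, and 29.1% of all tested genes differed by over 2-fold. In A431 SLC7A11 was 2.92-fold, SLC7A1 2.11-fold, SLC38A1 2.09-fold, SLC38A2 2.08-fold and SLC1A5 1.94-fold lower with empty vector than with siCTRL, with 6.06% of all genes past 2-fold. SLC7A5 and SLC2A1 differed by less than 1.5-fold between the controls of either line. Taking each arm relative to its own control left 0 calls in A431, where 1.53% of all genes were called, 1 in HaCAT (9% of all genes), SLC1A5 at 1.45 (SE 0.42, FDR 0.0482), and 3 over both lines (9.63% of all genes), SLC7A5 at 1.79 (FDR 0.0230), SLC1A5 at 1.2 (FDR 0.0252) and SLC7A1 at 1.12 (FDR 0.0251). Marker sums of other cell types also differed between the arms in HaCAT. From siYAP to YAP5SA libraries the fibroblast sum went from 21.5 to 27.9 CPM down to 0.861 to 1.90 CPM, with 0 of 7 markers (3 tested) called higher and 2 lower, and the endothelial sum from 15.99 to 19.6 CPM down to 1.18 to 2.46 CPM, with 0 of 4 markers (3 tested) called higher and 2 lower. The siCTRL and empty vector libraries held 22.3 and 0.669 CPM of the fibroblast markers and 59.2 and 2.10 CPM of the endothelial ones. The leukocyte sum went the other way, from 12.2 to 17.3 CPM with siYAP up to 23.9 to 34.5 CPM with YAP5SA. Of its 6 markers (2 tested) 1 was called higher and 1 lower. The melanocyte sum was 1.90 to 3.25 CPM with siYAP and 0.893 to 1.49 CPM with YAP5SA, with 0 of 4 markers (2 tested) called. The keratinocyte sum was 2559 to 3122 CPM with siYAP and 5478 to 8535 CPM with YAP5SA, with 6 of 9 called higher and 1 lower. The part of these markers in the transporter differences was not tested. In the direct comparison these other differences between the arms and the YAP1 treatment cannot be told apart for any member. The calls relative to each arm's own control rest on 1 control library per arm and line.

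Between the lines, with siYAP in both, SLC1A5 was 2.50-fold higher in A431 (log2 difference 1.32, SE 0.21, FDR 9.23e-05) and SLC38A2 1.25-fold higher (0.32, SE 0.12, FDR 0.0300). SLC38A1 at -0.42 (SE 0.17, FDR 0.0455) and SLC2A3 at -2.21 (SE 0.45, FDR 6.58e-04) were lower in A431, and these 4 of 10 stand beside 58.6% of all genes, 31.7% higher and 26.9% lower. SLC2A3 passed the logCPM level only through the HaCAT vector libraries, so its calls between the lines add no support. With YAP5SA 4 members were lower in A431, where 50.2% of all genes were called and 23.5% were lower: SLC2A3 at -5.55 (SE 0.46), SLC7A1 at -0.86 (SE 0.19), SLC3A2 at -0.85 (SE 0.30) and SLC38A2 at -0.62 (SE 0.12). SLC38A2 therefore stood higher in A431 with siYAP and lower in A431 with YAP5SA. Its control libraries lay the same way, at 1242 CPM in A431 and 729 CPM in HaCAT with siCTRL, and 596 and 1192 CPM with empty vector. The part of the differences between the siRNA and vector arms in this was not tested. The siYAP call of SLC38A1 was lost without any 1 of the 6 libraries, and that of SLC38A2 without replicate 1 or 3 of either line. With YAP5SA, SLC3A2 was lost without HaCAT replicate 2 (FDR 0.0709) or replicate 3 (FDR 0.0599). The latter fit left 2 calls, beside 45.6% of all genes. Without A431 replicate 1, SLC1A5 at 0.60 and SLC38A1 at 0.35 were called higher. SLC1A5 was at 0.39 with YAP5SA (SE 0.21, FDR 0.121). It was called at 0.38 (FDR 0.0197) with the replicate number as a block, which brought the count to 5 (50.9% of all genes). The difference of an effect between the lines passed the test for 0 members with siYAP (0.17% of all genes) and 0 with YAP5SA (0.0886%). At an unadjusted p under 0.05 edgeR counted 1 member for each, beside 1690 and 3280 of the 14673 tested genes. DESeq2 called 0 members with siYAP and 1 with YAP5SA, where it called 6.43% of all genes. The edgeR count with YAP5SA was 3 without A431 YAP5SA replicate 1 (5.94% of all genes) and 1 without HaCAT YAP5SA replicate 2 (3.39%).

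Levels of different genes can be compared only per length of transcript, here CPM per kilobase of the GENCODE transcript with the longest coding sequence. The median over the 8 A431 libraries was highest for SLC38A2 at 184 and SLC38A1 at 181 CPM per kilobase, followed by SLC3A2 at 75, SLC1A5 at 60.4, SLC7A5 at 52.1 and SLC2A1 at 39.1. SLC7A1 at 11.5 and SLC7A11 at 5.40 came next, with SLC2A3 at 0.0632 and SLC6A14 at 0.00846 last. The ranges over libraries, which take in all treatments, overlapped between every 2 neighbours from SLC38A2 to SLC2A1 and between SLC7A1 and SLC7A11. In HaCAT the order was the same but for SLC7A5 at 45.3 and SLC2A1 at 36.5, which stood above SLC1A5 at 28.6 CPM per kilobase, with overlapping ranges.

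For each member, the tested gene whose centred log2 level followed it most closely over the 16 libraries was LRRC59 for SLC3A2 (r = 0.984), NAPA for SLC2A1 (0.974), MARS, a methionyl-tRNA synthetase, for SLC7A11 (0.966), ANXA3 for SLC7A1 (0.965), CDK5R1 for SLC6A14 (0.957), DESI1 for SLC1A5 (0.949), RBM10 for SLC7A5 (0.945), PHLDB2 for SLC38A2 (0.932), COL4A2 for SLC2A3 (0.908) and HLCS for SLC38A1 (0.839). The next closest to SLC7A11 were ASNS, asparagine synthetase, at 0.963 and GARS, a glycyl-tRNA synthetase, at 0.959. These are the highest of many values over libraries that share treatments.

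Of 45 other amino acid transporter genes 22 were tested. With siYAP over both lines 1 was higher, the taurine transporter SLC6A6 at 0.74 (SE 0.17, FDR 0.0116), and 2 were lower, the glutamate transporter SLC1A3 at -0.72 (SE 0.16, FDR 0.00977) and SLC38A7 at -0.74 (SE 0.22, FDR 0.0433). With YAP5SA 0 were called over both lines. In HaCAT 4, named here after their values were seen, were higher, where 6.99% of all tested genes were. These were SLC43A2 at 1.33 (SE 0.37), SLC38A5 at 0.96 (SE 0.22), SLC36A1 at 0.78 (SE 0.21) and SLC7A6 at 0.57 (SE 0.15). The median of the list was 0.57. For SLC43A2, SLC36A1 and SLC7A6 the HaCAT empty vector library, at 2.2, 7.48 and 60.4 CPM, lay below siCTRL, at 5.46, 15.4 and 126 CPM. SLC38A5 went the other way, at 41.8 and 27.4 CPM. SLC43A2, SLC36A1 and SLC7A6 were called lower with YAP5SA than with siYAP in HaCAT, and SLC38A5 higher. The part of the empty vector level in these calls was not tested. Of 24 other hexose and lactate transporter genes 14 were tested, and the lactate transporter SLC16A1 was lower with siYAP at -0.87 over both lines (SE 0.10, FDR 1.35e-04), at -0.79 in A431 (FDR 0.00649) and at -0.96 in HaCAT (FDR 0.00156). It was at 457 CPM with siCTRL and 259 to 272 CPM with siYAP in A431, and at 221 CPM and 109 to 118 CPM in HaCAT. SLC16A7, another monocarboxylate transporter, was called higher with siYAP over both lines at 0.78 (SE 0.24, FDR 0.0470), but not within A431 or HaCAT. Its A431 levels were low, with siYAP libraries reading 1.18, 1.21 and 1.9 CPM beside a control of 0.539 CPM. The HaCAT control read 19 CPM and the knockdown libraries 23.4, 19 and 22.7 CPM, so replicate 2 was level with the control. With YAP5SA SLC2A13 was lower at -0.66 (SE 0.15, FDR 0.0419) over both lines. The lactate exporter SLC16A3 was called with YAP5SA at 0.66 over both lines (SE 0.15, FDR 0.0425), a mean of unlike lines: in HaCAT it was higher at 1.37 (FDR 0.00490), and in A431 it was at 24.7, 26.6 and 24.6 CPM against 26.4 CPM with empty vector.

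Genes of the amino acid response, the program of ATF4 targets switched on when amino acids run short, were counted beside the transporters. Of 26 such genes 1 was higher and 1 lower with siYAP over both lines, and 0 were called with YAP5SA over both lines. Between YAP5SA and siYAP 19 were higher and 2 lower in HaCAT, where 31.5% and 28.5% of all genes were, with a median of 1.07 against -0.059 for all genes. In A431 8 were higher and 2 lower, where 20% and 14.6% of all genes were, with a median of 0.20 against -0.033. Of 22 glycolysis genes 2 were higher and 2 lower with siYAP over both lines and 0 were called with YAP5SA over both lines, while 20 were higher and 0 lower with YAP5SA than with siYAP in HaCAT, and 12 higher and 1 lower in A431, beside the same shares of all genes. Of 11 regulators of transporters, 10 tested, 1 was called higher with siYAP and 1 lower with YAP5SA over both lines. The direct comparisons among these counts hold the same difference between controls as above.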

How the data were processed

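RNA was sequenced from 16 libraries as paired 100-base reads that the authors trimmed to 75 bases. The deposited values are estimated counts per gene symbol from RSEM, mapped to RefSeq models (RSEM 1.2.11 and hg19 in the submitters' processing notes, and another RSEM release in the study's methods). The table gives no coordinates, so builds were not mixed: promoters come from RefSeq GRCh38.p14 and lengths from GENCODE 29. After rounding them to whole numbers, tests were run with edgeR 4.0.16 in R 4.3.3 (TMM, glmQLFit, 1 model of 8 groups, 8 residual degrees of freedom, prior count 0.125), after a filter on a mean above 10 counts. TMM factors lay between 0.914 and 1.07. A gene was called at a Benjamini-Hochberg FDR under 0.05 over all 14673 tested genes and a logCPM above 1, as in the study's methods. The SE is the log2 fold change divided by the root of F. The lone control library of a contrast is assumed to vary like the treated groups. The floor given for 0 counts covers counting error only, while the SE also takes in the fitted spread between libraries.

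The script was tested on simulated counts. Tables and figures were made with Python 3.11.15, pandas 2.3.3 and matplotlib 3.10.9. Alternatives were DESeq2 1.42.0, other size factors and filters, each line alone, siCTRL and empty vector as 2 controls, differences of differences, the replicate number as a block and each treated library left out. Deviations of same-numbered libraries correlated at 0.101 to 0.28 between A431 and HaCAT with YAP5SA, where 4 of 6 libraries correlated best with their own number. Between the lines with siYAP the correlations were 0.036 to 0.178, and 6 of 6 libraries did so. Between the arms of a line 0 of 6 did so in A431 and 2 of 6 in HaCAT. The labels do not say what the numbers pair. All members, YAP1 and SLC2A14 are named, with up to 3 called genes per direction from each list of other transporters and the gene most like each member. The 4 transporters called only in HaCAT, and ASNS and GARS, were added after their values were seen. The members and lists were chosen with earlier results of these data known.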

Additional observations from a re-analysis of the deposited data

Results flagged for a closer look

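In 4 cases, SLC6A14 left aside for its low counts, every treated library lay on one side of the control in A431 and on the other in HaCAT, and in none did the test of the difference between the lines (edgeR) pass an FDR of 0.05. Of all tested genes, 34.9% had every siYAP library below the control in A431 and 36.3% above it in HaCAT. With YAP5SA these shares were 24.5% below in A431 and 32.1% above in HaCAT. The share with opposite sides in the 2 lines was not counted, so the 4 cases are not read as particular to the members. The siYAP effect differed, as A431 minus HaCAT on the log2 scale, by -0.97 for SLC38A1 (SE 0.35, FDR 0.309), by -0.45 for SLC38A2 (SE 0.24, FDR 0.503) and by -1.19 for SLC2A3 (SE 1.01, FDR 0.711). For SLC38A2, HaCAT siYAP replicate 1 was at 731 CPM against 729 CPM in its control. The YAP5SA effect of SLC2A3 differed by -3.01 (SE 0.85, FDR 0.0845), from -1.83 in A431, on at most 14.3 counts, and 1.19 in HaCAT. With siYAP SLC6A14 lay the same way, on at most 8.08 counts in any siRNA library. Each side is measured against 1 control library, and the cause was not tested.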

How the results depend on the processing

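Counts of called members are given first, with the percentage of all genes called in the same fit in brackets where given. With siCTRL and empty vector pooled as 2 controls, 1 member, SLC3A2 at -1.47 (FDR 0.0400), was called for siYAP in HaCAT (20%) and 1 for YAP5SA in HaCAT (13%). With each line alone the counts were 1 for YAP5SA in HaCAT (4.51%) and 3 for YAP5SA against siYAP in A431 (39.4%). For YAP5SA over both lines they were 3 with DESeq2 (7.24%), 2 with no count filter (1.5%) and 2 with more than 10 counts in every library (3.16%). The last filter also gave 2 between the lines with siYAP (67.6%). DESeq2 gave 1 for the line difference of the YAP5SA effect (6.43%). Differences of differences gave 0 in A431 (1.53%), 1 in HaCAT (9%) and 3 over both lines (9.63%). Leaving out each treated library gave 0 to 4 (0.592%) for YAP5SA in A431, 0 (7.8%) to 3 (14.9%) in HaCAT and 0 to 6 over both lines (0.327% to 9.33%). It gave 3 to 6 for YAP5SA against siYAP in A431, 2 to 3 between the lines with siYAP and 2 to 6 with YAP5SA, where the main fits called 34.6%, 58.6% and 50.2% of all genes. Leaving out a library gave 0 to 3 (5.94%) for the line difference of the YAP5SA effect and 0 for the siYAP effects.

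Some log2 fold changes turned sign. With 2 pooled controls that for siYAP in A431 was 0.16 for SLC1A5 and 0.20 for SLC38A2, for siYAP in HaCAT -1.59 for SLC7A11, -0.18 for SLC38A2 and -0.93 for SLC2A3, and for YAP5SA -0.27 in A431 and 0.29 in HaCAT for SLC38A2. The last was 0.02 with more than 10 counts in every library. SLC1A5 in A431 between YAP5SA and siYAP was 0.02 with no count filter, 0.01 with the line alone and 0.95 as a difference of differences, which gave 0.60 for SLC38A2 in A431, -0.23 for SLC38A2 and -4.73 for SLC6A14 in HaCAT and -0.67 for SLC2A3 over both lines. Leaving out 1 library moved siYAP in HaCAT from -0.09 to 0.26 for SLC7A11 and from -0.04 to 0 for SLC2A1, and YAP5SA in HaCAT from -0.17 to 0.01 for SLC38A1 and from -0.05 to 0.02 for SLC38A2. For YAP5SA against siYAP in A431 it gave -0.20 to 0.20 for SLC1A5, -0.03 to 0.36 for SLC38A1 and -0.05 to 0.35 for SLC7A1. For A431 against HaCAT with YAP5SA it gave -0.91 to 0.08 for SLC7A11, -0.16 to 0.07 for SLC2A1 and -0.05 to 0.35 for SLC38A1. The causes were not tested.

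The replicate number as a block over the 12 treated libraries gave 4 calls for YAP5SA against siYAP in A431, 9 in HaCAT, 7 over both lines, 4 between the lines with siYAP and 5 with YAP5SA. In the main fits of these contrasts 34.6%, 60%, 58.4%, 58.6% and 50.2% of all genes were called. The last block fit called 50.9%. Same-numbered correlations reached 0.1 in 0 of 3 pairs between the arms of A431 and 0 of 3 in HaCAT. Between the lines they did so in 2 of 3 pairs with siYAP and 3 of 3 with YAP5SA. There the best correlation was with the own number for 6 of 6 libraries with siYAP and 4 of 6 with YAP5SA. The labels do not say what the numbers pair. No paired analysis was possible for effects against a control, because each control is 1 library. That also limits the precision of every such effect, and SLC6A14 and SLC2A3 in A431 had too few counts for a difference to be detectable.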
